A study of Mus musculus with 4 samples.

Results

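The genes described here are 10 macrophage genes, taken by symbol from the 32285 genes in the files. They are C1qa, C1qb and C1qc, which encode the chains of complement C1q, and Adgre1 (F4/80) and Mrc1 (CD206), surface markers of resident macrophages. Trem2 and Gpnmb are markers of lipid-associated macrophages. Fcrls is a marker of microglia and other resident macrophages, and Lyz2 and Cd68 mark macrophages more broadly. All 10 genes were measured in kidney sections by Visium spatial transcriptomics. In it, each spot of a barcoded slide captures polyadenylated RNA from a small patch of tissue that can hold several cells. There were 2 sections of Uox_KO mice and 2 sections of Control mice, 1 section per mouse. All mice were male on the C57BL/6J background, and the labels used here gave no age. The Uox_KO mice lack exons 2 to 4 of Uox, the gene for urate oxidase, which breaks down uric acid in rodents, and are a model of high uric acid. Fresh frozen tissue was cut at 10 µm.

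Resident kidney macrophages lie between the tubules and around glomeruli, express C1q, F4/80 and CD206, and depend on signals through the receptor of colony stimulating factor 1. C1q starts the classical complement cascade and also coats dying cells for removal by phagocytes. TREM2 is a surface receptor for lipids and lipoproteins that signals through the adaptor TYROBP (DAP12). With GPNMB, a glycoprotein of lysosomes and the cell surface, it is part of the program described in macrophages that take up lipid and debris in fat, atherosclerotic vessels and injured organs.

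Counts are unique molecular identifiers (UMIs), each 1 captured RNA molecule. The sections held 53897511 and 57230517 UMIs in Uox_KO, against 93524222 and 107962997 UMIs in Control. Median UMIs per spot were 16674 and 19600 in Uox_KO and 37386 and 32039 in Control, over 2650 and 2590 spots and 2528 and 3362 spots. Spot comparisons therefore used spots thinned to 5000 UMIs. Mitochondrial genes took 14.3% and 17.3% of the UMIs in Uox_KO and 13.03% and 14.0% in Control. Uox itself had 0 UMIs in all 4 sections, so its counts did not check the labels. Spots rich in fat or urothelium genes, called hilar here, made up 12.4% and 15.2% of the Uox_KO sections, against 0.0791% and 0.506% of the Control sections.

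The start regions of 4 of these genes are shown because the C1q genes on one side, and Trem2 and Gpnmb on the other, define the classes of spots compared further on. Each run has 300 bases, from 250 before to 50 after the gene start, in the direction of transcription, from RefSeq on GRCm38.p6. C1qb (chr4:136886151-136886450, minus strand) and C1qc (chr4:136892865-136893164, minus strand) lie in 1 cluster with C1qa. Trem2 starts at chr17:48346151-48346450 and Gpnmb at chr6:49036268-49036567, both on the plus strand. Capitals mark 4 motifs searched on both strands: GAGGAA, the core bound by the macrophage factor PU.1; CATGTG and CACGTG, the E-boxes bound by the MiT/TFE factors of lysosomal genes; and TGANTCA, the AP-1 motif.
C1qb: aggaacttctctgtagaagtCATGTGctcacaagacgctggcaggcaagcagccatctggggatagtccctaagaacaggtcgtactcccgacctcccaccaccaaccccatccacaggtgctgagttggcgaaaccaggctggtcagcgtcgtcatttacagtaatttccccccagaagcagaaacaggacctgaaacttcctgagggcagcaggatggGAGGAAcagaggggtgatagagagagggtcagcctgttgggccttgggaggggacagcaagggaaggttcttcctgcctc
C1qc: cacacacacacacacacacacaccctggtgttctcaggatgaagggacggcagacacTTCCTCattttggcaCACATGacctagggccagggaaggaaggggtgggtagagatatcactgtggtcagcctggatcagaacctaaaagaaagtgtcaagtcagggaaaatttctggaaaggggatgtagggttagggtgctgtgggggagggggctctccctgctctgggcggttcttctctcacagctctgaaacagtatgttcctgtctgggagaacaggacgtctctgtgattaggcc
Trem2: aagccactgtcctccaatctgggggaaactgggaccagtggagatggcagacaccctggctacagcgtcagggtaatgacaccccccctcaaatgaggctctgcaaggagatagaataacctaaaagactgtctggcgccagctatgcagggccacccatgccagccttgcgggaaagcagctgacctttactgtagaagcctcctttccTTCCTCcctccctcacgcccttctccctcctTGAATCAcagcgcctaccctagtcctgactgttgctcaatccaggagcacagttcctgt
Gpnmb: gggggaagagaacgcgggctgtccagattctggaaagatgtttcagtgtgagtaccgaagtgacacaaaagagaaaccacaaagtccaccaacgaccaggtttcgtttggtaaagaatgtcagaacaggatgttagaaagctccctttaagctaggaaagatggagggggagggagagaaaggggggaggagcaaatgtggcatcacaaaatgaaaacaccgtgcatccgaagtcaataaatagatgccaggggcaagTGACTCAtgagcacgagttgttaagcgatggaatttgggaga

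C1qb held GAGGAA and CATGTG, and C1qc held both on the opposite strand, as TTCCTC and CACATG. Trem2 held TTCCTC and the AP-1 match TGAATCA. Gpnmb held TGACTCA and no GAGGAA. Of the 10 genes, 8 had a promoter in the table (C1qa and Adgre1 are named only). GAGGAA was found in 6 of the 8 and in 28.3% of all 32851 promoters of this length. CATGTG was found in 3 of the 8 and in 14.2% of all promoters, TGANTCA in 3 of the 8 and in 7.81%, and CACGTG in 0 of the 8 and in 7.15%. A match describes the letters of the window and is not evidence of binding.

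In whole sections, all 10 genes were higher in Uox_KO than in Control (edgeR, quasi-likelihood F test, p adjusted by Benjamini-Hochberg over all genes). Of the 16369 genes tested, 34.6% were higher and 32.5% lower, and the median of all log2 fold changes was 0.00. With library totals alone as the scale, 8156 genes were higher and 2926 lower, against 5665 and 5325, the median of all genes moved to 0.27, and the 10 genes were still all higher. Replicates are different mice by their labels, and with 2 sections a group the p-values rest on the spread between 2 animals. A summed section cannot tell more macrophages from more RNA of these genes per macrophage.

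Among the C1q genes, C1qb had 272 and 238 CPM (UMIs per 1000000 of the scaled section total) in the Uox_KO sections, against 19.2 and 17.7 CPM in the Control sections. Its log2 fold change was 3.79 (SE 0.094, adjusted p = 1.3e-06), a mean of 255 ± 24.1 CPM against 18.5 ± 1.08 CPM (SD, n = 2 each). C1qa had 200 and 148 CPM in Uox_KO and 17.1 and 16.0 CPM in Control, a log2 fold change of 3.39 (SE 0.15, adjusted p = 6.0e-06). C1qc had 129 and 99.7 CPM in Uox_KO and 12.5 and 10.9 CPM in Control, a log2 fold change of 3.29 (SE 0.14, adjusted p = 5.4e-06). For each C1q chain the groups were far apart, and the first Uox_KO section was above the second.

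Adgre1, an adhesion receptor and the classic mouse macrophage antigen, had 22.5 and 17.1 CPM in Uox_KO, against 2.67 and 2.23 CPM in Control. Mrc1, the mannose receptor, had 23.9 and 18.6 CPM in Uox_KO, against 2.01 and 1.99 CPM in Control. Both genes rose by about the size seen for the C1q genes. The log2 fold change was 3.02 for Adgre1 (SE 0.16, adjusted p = 1.2e-05) and 3.40 for Mrc1 (SE 0.14, adjusted p = 5.2e-06).

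Trem2 and Gpnmb were nearly absent from Control. Trem2 had 893 and 706 UMIs in the Uox_KO sections, against 12 and 11 UMIs in the deeper Control sections, or 13.2 ± 2.40 CPM against 0.126 ± 0.0211 CPM (SD, n = 2 each). Its log2 fold change was 6.70 (SE 0.23, adjusted p = 2.7e-06), and only 0.733% of the genes tested had a larger one. Gpnmb was sparse even in Uox_KO, with 131 and 102 UMIs, against 8 and 7 UMIs in Control. Its log2 fold change was 4.52 (SE 0.30, adjusted p = 2.9e-05), with 2.27% of genes above it.

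Fcrls, an Fc receptor-like gene known in the mouse as a marker of microglia and other resident macrophages, had the largest log2 fold change of the 10. It had 1660 and 1382 UMIs in Uox_KO, against 11 and 6 UMIs in Control, a log2 fold change of 8.05 (SE 0.23, adjusted p = 1.5e-06). Lyz2, lysozyme of macrophages, monocytes and granulocytes, had 365 and 290.0 CPM in Uox_KO, against 13.2 and 12.6 CPM in Control, a log2 fold change of 4.67 (SE 0.13, adjusted p = 1.4e-06). Its near-identical neighbour Lyz1 had 121 and 61 UMIs in Uox_KO and 2 and 6 UMIs in Control, so how reads were split between them is uncertain. Cd68, a lysosomal membrane protein of phagocytes, had 15.8 and 13.1 CPM in Uox_KO, against 2.42 and 2.19 CPM in Control. Its log2 fold change of 2.65 (SE 0.12, adjusted p = 7.3e-06) was the smallest of the 10. No Uox_KO section overlapped a Control section for any of the 10 genes. The share of all genes without such overlap was not counted, and 34.6% and 32.5% of all genes tested were called higher and lower.

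**Figure D1:**
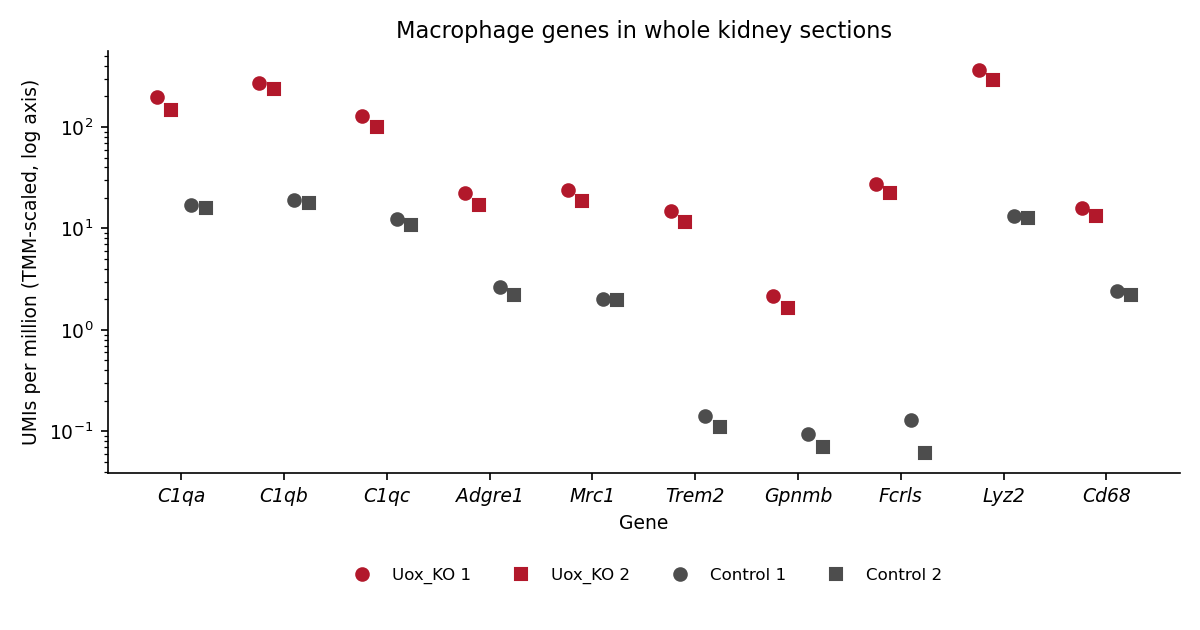
CPM on a log axis for the 10 genes in each section, with Uox_KO sections in red left of Control sections in grey. Every Uox_KO point lies above both Control points of its gene, and the gaps are widest for Fcrls and Trem2.

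Set against C1q, the genes fell into groups. Trem2 had 2.47 and 2.36 UMIs per 100 C1q UMIs (C1qa, C1qb and C1qc summed) in the Uox_KO sections, against 0.289 and 0.250 in the Control sections. The exact 95% intervals (binomial, from the gene's share of its own and C1q UMIs) were 2.31 to 2.64 and 2.19 to 2.54 in Uox_KO and 0.149 to 0.506 and 0.125 to 0.447 in Control, for counting error only. The mean ratio was thus 8.97-fold higher in Uox_KO. With 2 sections against 2, an exact permutation test cannot give a two-sided p below 0.33, so these ratios are given without one. Gpnmb had 0.363 and 0.341 UMIs per 100 C1q UMIs in Uox_KO and 0.193 and 0.159 in Control, with intervals that overlapped (0.278 to 0.414 in the lower Uox_KO section and 0.0832 to 0.380 in the higher Control section).

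Fcrls had 4.60 and 4.62 UMIs per 100 C1q UMIs in Uox_KO, against 0.265 and 0.136 in Control. Lyz2 had 60.8 and 59.7 in Uox_KO and 27.0 and 28.2 in Control. Both were higher relative to C1q in Uox_KO, by 23.0-fold and 2.18-fold. Mrc1 kept nearly the same ratio, with 3.97 and 3.83 in Uox_KO and 4.12 and 4.47 in Control, and overlapping intervals. Adgre1 and Cd68 were lower relative to C1q in Uox_KO. Adgre1 had 3.75 and 3.53 per 100 C1q UMIs in Uox_KO and 5.47 and 4.99 in Control, and Cd68 had 2.62 and 2.70 in Uox_KO and 4.96 and 4.93 in Control. Their CPM were higher in Uox_KO all the same.

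**Figure D2:**
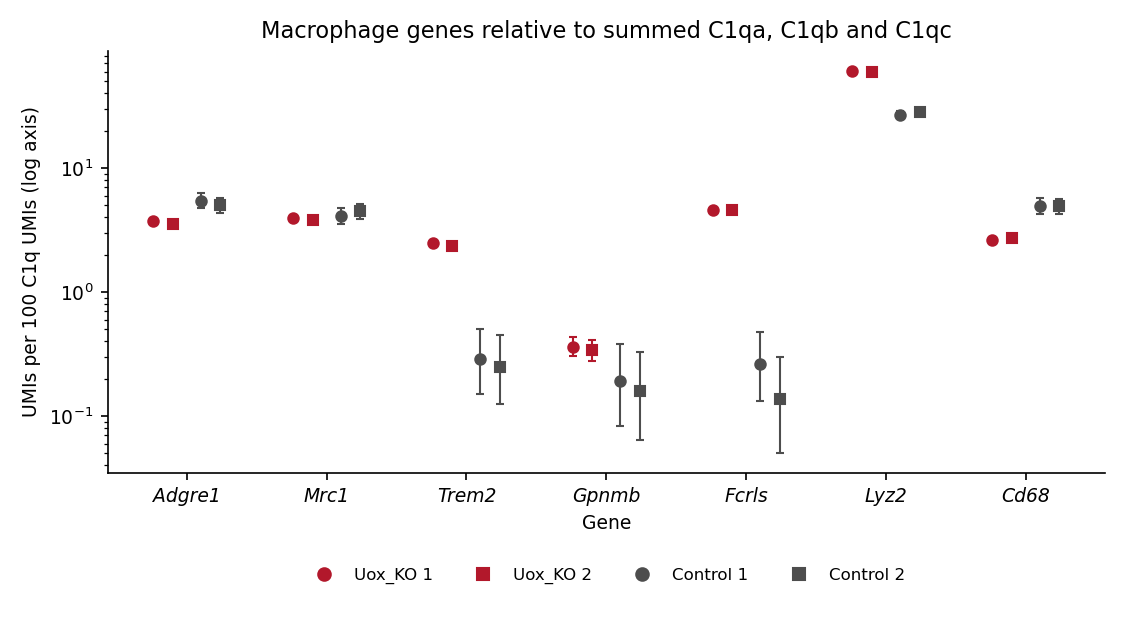
UMIs of 7 genes per 100 summed C1qa, C1qb and C1qc UMIs in each section on a log axis, with exact 95% binomial intervals as bars, Uox_KO in red left of Control in grey. Trem2, Fcrls and Lyz2 are higher relative to C1q in Uox_KO, Adgre1 and Cd68 are lower, and the intervals of Mrc1 and Gpnmb overlap.

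Other resident macrophage genes mostly rose in whole sections. Of 11 tested, 9 were higher and 2 lower. Their median log2 fold change was 2.39, beside 0.00 for all genes. Among those higher, Cx3cr1, the fractalkine receptor, rose by 3.97, Pf4, a chemokine made by tissue macrophages, by 3.34, Cbr2, a carbonyl reductase, by 2.48 and Stab1, a scavenger receptor, by 2.39 on the log2 scale. The 2 that were lower, named after their values were seen, were the efferocytosis receptor gene Mertk (-0.54) and the transcription factor gene Maf (-0.77), which tubule cells also express. Timd4 and Vsig4, markers of long-lived resident macrophages, were too sparse to test, with 11 and 5 Timd4 UMIs and 3 and 4 Vsig4 UMIs in Uox_KO.

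The other genes of the lipid-associated program were mixed. Of 21 tested, 16 were higher and 3 lower (median 0.94). Spp1, which encodes osteopontin, rose by 3.80, Apoe, the lipid carrier, by 3.15, Axl, an efferocytosis receptor, by 2.26 and Plin2, a coat protein of lipid droplets, by 1.42 on the log2 scale. The 3 lower genes, named after their values were seen, were Lpl, lipoprotein lipase (-0.70), Lipa, lysosomal acid lipase (-0.83), and Cd36, a fatty acid transporter (-0.60). Kidney cells other than macrophages express many genes of this list.

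Of 7 genes of TREM2 signalling, 6 were higher and 0 lower (median 2.03). Syk, the kinase that TYROBP recruits, rose by 3.21, Tyrobp by 2.40, Inpp5d, a phosphatase that damps the signal, by 2.06 and Hcst, a second adaptor, by 2.03. Of the 4 MiT/TFE factor genes, which drive Gpnmb in other settings, 2 were higher by small amounts, Tfec by 0.45 and Mitf by 0.26. The Tfec call was lost with spots thinned to 5000 UMIs (adjusted p = 0.0954), and the Mitf call was lost with DESeq2 and without the first Uox_KO, the first Control or the second Control section (largest adjusted p = 0.105).

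All 5 tested ligands and receptors of the colony stimulating factors were higher (median 1.90). The ligand Csf1 rose by 2.54, its receptor gene Csf1r by 1.90 and Csf2rb, the shared receptor chain for GM-CSF, by 3.63. Il34, the tubule-derived ligand of the same receptor, rose by 1.38, a gene added after its value was seen. All 6 genes of the classical complement pathway other than C1q were higher (median 2.08), led by C3 (5.26) and C4b (3.59).

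Many genes of other cells moved in the same sections. Of 10 monocyte genes, 10 were higher (median 3.02, Ccr2 2.98), as were 14 of 15 genes shared by myeloid cells (median 3.11, Ms4a7 4.67, Cd14 3.38), 9 of 9 dendritic cell genes (2.15), 10 of 10 T and NK cell genes (2.61), 10 of 10 matrix genes (3.70), 8 of 8 adipocyte genes (6.30) and 8 of 8 urothelium genes (9.10). Of 11 neutrophil genes, 3 could be tested and were higher. Of 6 B and plasma cell genes 1 was higher and 2 lower (median -0.19), and of 6 endothelial genes 1 was higher and 3 lower (-0.24). Summed over each list and divided by the section total, the monocyte genes had 124 and 115 UMIs per 1000000 in Uox_KO, against 23.1 and 23.8 in Control, and the T and NK cell genes 85.0 and 64.6 in Uox_KO, against 7.5 and 7.65 in Control. The adipocyte genes had 1197 and 2142 in Uox_KO, against 2.19 and 21.1 in Control, and the urothelium genes 167 and 114 in Uox_KO, against 0.642 and 0.815 in Control. The neutrophil genes were low in both groups but higher in Uox_KO, with 5.55 and 6.74, against 2.12 and 1.93 in Control. The granule genes Ngp and Camp were at 0 in both Uox_KO sections and had 0 and 1 UMIs each in Control, too few to compare. The part of these cells in the rise of the 10 macrophage genes was not tested. Without the hilar spots, all 10 macrophage genes were still higher.

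Many tubule genes were lower. All 13 genes of the first proximal tubule segments were lower (median -1.36), among them the phosphate transporter gene Slc34a3 (-4.24) and the glucose transporter gene Slc5a2 (-2.91). In the thick limb, 6 of 9 were lower and 0 higher, including Egf (-2.93), and of the distal and connecting tubule genes 4 of 8 were lower and 0 higher. The S3 list was mixed, with 2 of 7 higher and 4 lower (median -0.34). The injury genes Havcr1, which encodes KIM-1, and Lcn2, which encodes NGAL, had log2 fold changes of 8.14 and 8.10, and 12 of 13 listed tubule injury genes were higher.

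Per spot, the genes were seen in far more of the Uox_KO tissue. At 5000 UMIs a spot, with 2357 and 2438 Uox_KO spots and 2522 and 3358 Control spots deep enough to use (293 and 152 spots, and 6 and 4 spots, were left out), 65.3% and 59.3% of Uox_KO spots held a C1qb UMI, against 8.29% and 8.34% of Control spots. Trem2 was found in 9.12% and 6.81% of Uox_KO spots. In Control it was found in 0 of 2522 spots, which allows a share of up to 0.119%, and in 0.0893% of the other section's spots. Without thinning the Trem2 shares were 23.5% and 18.2% in Uox_KO and 0.396% and 0.327% in Control.

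Gpnmb was found in 1.32% and 1.07% of thinned Uox_KO spots and in 0.119% and 0.0298% of Control spots. Fcrls was found in 14.6% and 12.6% of Uox_KO spots, against 0.0397% and 0.0298% of Control spots. The shares for Adgre1 were 11.8% and 10.9% in Uox_KO and 1.31% and 1.31% in Control, and for Mrc1 13.1% and 10.4% in Uox_KO and 1.19% and 1.04% in Control. Each Uox_KO section was above both Control sections for each of these genes. For how many of all genes this holds was not counted. A share of spots is not a share of cells. Barcodes mark array positions, so the 1713 shared by all 4 sections do not mark shared cells.

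Within Uox_KO, spots with more C1q more often held Trem2 or Gpnmb. Of spots with no C1q UMI, 2.56% (11 of 429) and 2.44% (15 of 616) held a UMI of either gene. The share was 4.29% and 3.80% at 1 or 2 C1q UMIs, 9.06% and 8.53% at 3 to 5, 16.0% and 15.5% at 6 to 9, and 32.1% (90 of 280) and 30.7% (63 of 205) at 10 or more. In Control, 2 of 2020 and 4 of 2741 spots with no C1q UMI held Trem2 or Gpnmb, and 1 of 489 and 0 of 601 spots with 1 or 2. The Uox_KO share at 1 or 2 C1q UMIs was thus above the Control share at the same C1q level, 0.204% in 1 section and at most 0.499% in the other. Few Control spots went higher: 13 and 16 spots had 3 to 5 C1q UMIs.

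**Figure D3:**
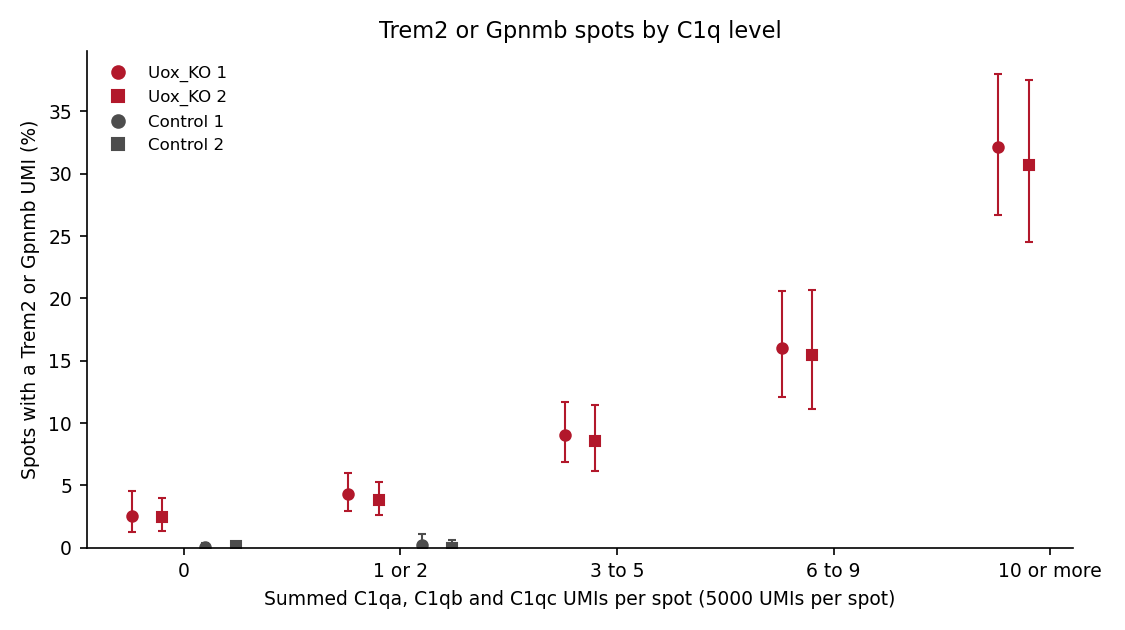
Share of spots with a Trem2 or Gpnmb UMI by the summed C1q UMIs of the spot, all spots thinned to 5000 UMIs, with exact 95% binomial intervals as bars and only bins of at least 100 spots shown. The Uox_KO sections, in red, run from 2.56% and 2.44% at no C1q UMI to 32.1% and 30.7% at 10 or more, and the Control sections, in grey, stay near 0.

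Most proximal tubule genes were lower in Uox_KO spots with 10 or more C1q UMIs than in spots with none. Of 13 genes of the first segments 10 were lower in both sections, and of 7 S3 genes 6. The first 13 summed to 1879 and 2116 CPM in spots with 10 or more, against 6015 and 6336 in spots with none. Among the genes with the lowest correlation to C1q, Slc34a1, the main phosphate transporter, had 1095 and 1229 CPM in Uox_KO spots with 10 or more and 3660 and 3799 in spots with no C1q. Slc22a6, the organic anion and urate transporter OAT1, had 243 and 228 in spots with 10 or more and 931 and 974 in spots with no C1q. In Control, Slc22a6 had 1020 and 967 at 1 or 2 C1q UMIs and 1081 and 1043 at no C1q. These levels are shares of a spot's UMIs, so a spot with more RNA of other cells holds less tubule RNA by construction.

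Over Uox_KO spots the C1q genes varied together, with a Pearson r of 0.558 and 0.583 between C1qa and C1qb on log2(UMI + 1) over 2357 and 2438 spots. Summed C1q and summed Trem2 and Gpnmb had r of 0.288 and 0.271. Trem2 and Lyz2 had 0.301 and 0.271, and Trem2 and Gpnmb 0.110 and 0.0152. With spots thinned to 10000 UMIs, Trem2 and Gpnmb had r of 0.171 and 0.121. In Control, r was 0.0614 and 0.0413 between C1qa and C1qb and 0.0086 and -0.0159 between the C1q and Trem2 and Gpnmb sums. These are descriptions over spots of 1 section, which share their library.

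Of 8625 genes compared over Uox_KO spots, the 5 most like summed C1q were Mgp, a matrix protein (r 0.699 and 0.671), Cd74, the chaperone of class II antigen presentation (0.669 and 0.686), Apoe (0.681 and 0.664), Actb, an actin (0.665 and 0.663), and Bgn, a matrix proteoglycan (0.664 and 0.649). The 5 most like summed Trem2 and Gpnmb were Mgp (0.275 and 0.268), Apoe (0.299 and 0.265), Bgn, Tmsb4x and Cd74, so 4 of the 5 genes were on both lists. Among 40 listed tubule genes, the lowest r to C1q were those of Slc22a6 (-0.344 and -0.388), Lrp2, the endocytic receptor megalin (-0.288 and -0.283), Slc34a1 (-0.282 and -0.346), Slc22a8 and Gatm. To Trem2 and Gpnmb, Slc22a6 was again lowest (-0.148 and -0.127).

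Spots with Trem2 or Gpnmb were then set against spots that held C1q but neither gene, within the 2 Uox_KO sections. There were 236 and 189 spots of the first kind and 1703 and 1648 of the second, with 8.55 and 7.76 against 4.48 and 3.92 C1q UMIs per spot. The 5 macrophage genes that did not define the classes were all higher in the Trem2 or Gpnmb spots, beside 6.19% of 12032 genes that were higher and 8.97% that were lower. Lyz2 had 1207 and 1001 CPM in Trem2 or Gpnmb spots and 453 and 379 CPM in C1q-only spots, a log2 fold change of 1.41 (SE 0.060, adjusted p = 3.0e-13). Cd68 rose by 1.14 (SE 0.18, adjusted p = 5.8e-05) and Fcrls by 1.06 (SE 0.14, adjusted p = 7.7e-06). Adgre1 and Mrc1 rose by 0.89 each (adjusted p = 0.00028 and 0.00016 by edgeR).

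Spots were then drawn so that both classes had the same C1q bins (225 and 174 spots a class). These bins were 1 or 2, 3 to 5, and 6 or more C1q UMIs, coarser than those above. In all, 12 genes were higher and 36 lower. Of the 5 macrophage genes, Lyz2 alone was still called higher, by 0.65 (adjusted p = 3.0e-05 by edgeR). Fcrls was at 0.74 (adjusted p = 0.0711), Cd68 at 0.41 (0.643), Mrc1 at 0.39 (0.60) and Adgre1 at 0.17 (0.875). Apoe (0.47, adjusted p = 8.2e-05), Axl (0.54, 0.0275), Timp1, an inhibitor of matrix proteases (0.77, 0.0003), and Col1a1 (0.45, 0.0084) were also higher at matched C1q bins. Lpl, on the same lipid-associated list as Apoe and Axl, was called lower there (-0.50, adjusted p = 0.0329 by edgeR). Within the bins, mean C1q was 8.97 and 8.43 UMIs in the Trem2 or Gpnmb spots and 7.46 and 7.78 in the others.

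Without that matching, the Trem2 or Gpnmb spots held more RNA of many macrophage, immune and matrix genes. Of 15 pan-myeloid genes 14 rose (median 0.89, beside 0.01 for all genes), including Ctss (0.95), Laptm5 (0.89) and Tyrobp (0.96). Of 10 other resident genes 4 were higher and 0 lower: Pf4 (1.06), Stab1 (0.90), Cx3cr1 (0.82) and Csf1r (0.78). Of 20 other lipid-associated genes 5 were higher, including Apoe (0.89) and Axl (0.80), and 4 were lower, including Cd36 (-0.77) and Lpl (-0.67). Of 10 matrix genes 9 were higher, including Timp1 (1.07) and Col1a1 (0.82). None of the 4 MiT/TFE genes was called by edgeR.

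Tubule genes were lower in the same spots: 8 of 13 genes of the first proximal segments, 4 of 7 of S3, 4 of 9 of the thick limb, 5 of 7 of the distal and connecting tubule and 5 of 7 principal cell genes, with 0 higher in each list. Slc34a1 had 1511 and 1812 CPM in Trem2 or Gpnmb spots and 2592 and 2764 CPM in C1q-only spots, a log2 fold change of -0.69. Slc22a6 (-0.74), Lrp2 (-0.73) and Slc22a8 (-0.92), another organic anion transporter gene, were lower by like amounts. At matched C1q bins, with fewer spots, Slc34a1, Slc22a6 and Lrp2 were at -0.28 and Slc22a8 at -0.47. None of these 4 was called (adjusted p from 0.0506 to 0.387 by edgeR). Listed genes of the distal and connecting tubule were still called lower there: S100g (-0.59), Calb1 (-0.69), Klk1 (-0.40) and Slc8a1 (-0.70). The principal cell gene Scnn1g was as well (-1.45). Adjusted p ran from 1.6e-05 for S100g to 0.0296 for Scnn1g by edgeR. Of the monocyte genes 2 of 7 were higher (Ccr2 0.69), and of the T and NK cell genes 1 of 10. Fat genes were lower in 6 of 7 cases; their part in the result was not tested.

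By size, the largest rises among genes of at least 10 CPM were Mmp12, the macrophage elastase (1.98), Cd84, a leukocyte adhesion receptor (1.70), Lilr4b, an inhibitory leukocyte receptor (1.63), Igha, the heavy chain of IgA (1.5), and Il21r, a cytokine receptor (1.43). Igha differed between the sections, with 126.9 and 26.6 CPM in Trem2 or Gpnmb spots and 35.7 and 17.8 CPM in C1q-only spots. At matched C1q bins, Mmp12 was at 1.31 (adjusted p = 0.169), Cd84 at 0.87 (0.421), Lilr4b at 0.79 (0.568) and Il21r at 0.86 (0.581), none of them called. The largest falls were Adipoq (-1.86), Acot3 (-1.71), Cidec (-1.64), Car3 (-1.61) and Retn (-1.54), of which Adipoq, Cidec and Retn are fat genes. Without hilar spots, Car3 was at -0.32 (adjusted p = 0.192), Cidec at -0.08 (0.923) and Retn at -0.31 (0.570), none of them called.

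Spots were also grouped by tubule and glomerulus gene lists into 7 compartments. CPM in compartments are UMIs per 1000000 UMIs of those spots, without the scaling between sections that the fitted fold changes use. The groups differed in size between genotypes: podocyte-list spots made up 13.9% and 11.2% of Uox_KO sections, against 8.39% and 9.67% of Control sections, and S3 spots 13.4% and 13.2% of Uox_KO sections, against 24.4% and 23.5% of Control sections. Their own genes differed as well: in podocyte-list spots 7 of 9 listed genes were lower in Uox_KO and 1 higher, and in S1/S2 spots 12 of 13 were lower and 1 higher. The part of these shifts in the results by compartment was not tested. The list for thin limbs and inner medulla did not hold up: its spots had 76.4 and 10.4 CPM of Slc14a2 in Uox_KO and 0 and 0 in Control, and in Uox_KO they carried 398 and 489 CPM of Havcr1 and 653 and 652 CPM of Col1a1. Those spots are called Cryab/Slc14a2-list spots here, after their list only, and given no cell type. In Control they had 19.4 and 32.2 CPM of Cryab, below the 54.4 and 56.4 CPM in podocyte-list spots. Whether they are the same tissue in both genotypes was not tested. Podocyte-list spots of Uox_KO also carried Col1a1, at 678 and 763 CPM, with 92.1 and 76.5 CPM of Havcr1.

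All macrophage genes tested were higher in Uox_KO in every compartment tested: 10 of 10 in 5 compartments, and 9 of 9 in the S1/S2 and collecting duct spots, where Gpnmb was too sparse. In the distal and connecting tubule Gpnmb rested on 6 and 7 UMIs in Uox_KO and 3 and 2 in Control, and the count was 9 with any 1 of the 4 sections left out. It was also 9 in S3 without either Uox_KO section and in the thick limb without the first Uox_KO section. The share of all genes higher was 27.9% in S1/S2, 27.7% in S3, 24.9% in thick limb, 23.5% in distal and connecting tubule, 23.6% in collecting duct, 31.4% in Cryab/Slc14a2-list and 30.0% in podocyte-list spots. The share lower, in the same order, was 25.3%, 25.3%, 23.0%, 23.5%, 21.4%, 28.2% and 28.2%. Each Uox_KO section had its lowest level of all 10 genes in S1/S2 spots and its 2 highest in podocyte-list and Cryab/Slc14a2-list spots. C1qb had 682 and 746 CPM in podocyte-list spots of Uox_KO and 22.0 and 23.4 in those of Control; on the scale of the fit these were 603 and 642 in Uox_KO and 25.2 and 27.1 in Control. In S1/S2 spots it had 147 and 108.1 in Uox_KO and 14.4 and 13.1 in Control.

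Trem2 had 38.2 and 38.0 CPM in Cryab/Slc14a2-list spots, 37.0 and 31.9 in podocyte-list spots and 7.45 and 5.67 in S1/S2 spots of Uox_KO. In Control it was at 0 in both sections in the Cryab/Slc14a2-list spots, a difference of at least 67.9-fold against 3 counts over the group. The spots of this list may not be the same tissue in both genotypes. Gpnmb had 10.1 and 6.62 CPM in Cryab/Slc14a2-list spots and 0.884 and 0.378 in S1/S2 spots of Uox_KO. Thick limb spots differed between the Uox_KO mice, with 22.3 and 12.97 CPM of Trem2 and 601 and 299 CPM of Lyz2.

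In Control, Mrc1 had 5.46 and 6.27 CPM in podocyte-list spots and 0.888 to 2.38 elsewhere outside the hilum. Lyz2 (23.8 and 23.9 CPM), C1qa (22.4 and 20.4) and C1qc (14.3 and 14.6) were also highest in podocyte-list spots in both Control sections. In Uox_KO, Mrc1 had 48.3 and 54.6 CPM in podocyte-list spots and 56.1 and 43.5 CPM in Cryab/Slc14a2-list spots. Its log2 fold change ran from 2.71 in podocyte-list spots to 4.27 in Cryab/Slc14a2-list spots. That of C1qb was largest in podocyte-list spots (4.57) and smallest in S1/S2 spots (3.19). Whether the fold change differed over the 7 compartments was tested with mouse as a block, and 41.1% of 14508 genes were called. C1qa, C1qb, C1qc, Trem2, Gpnmb, Lyz2 and Cd68 were among them (adjusted p from 8.8e-07 for C1qb to 0.0468 for Trem2 by edgeR). Adgre1 (0.0557), Fcrls (0.179) and Mrc1 (0.224) were not. The calls for Trem2 and Gpnmb rest on few Control UMIs.

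**Figure D4:**
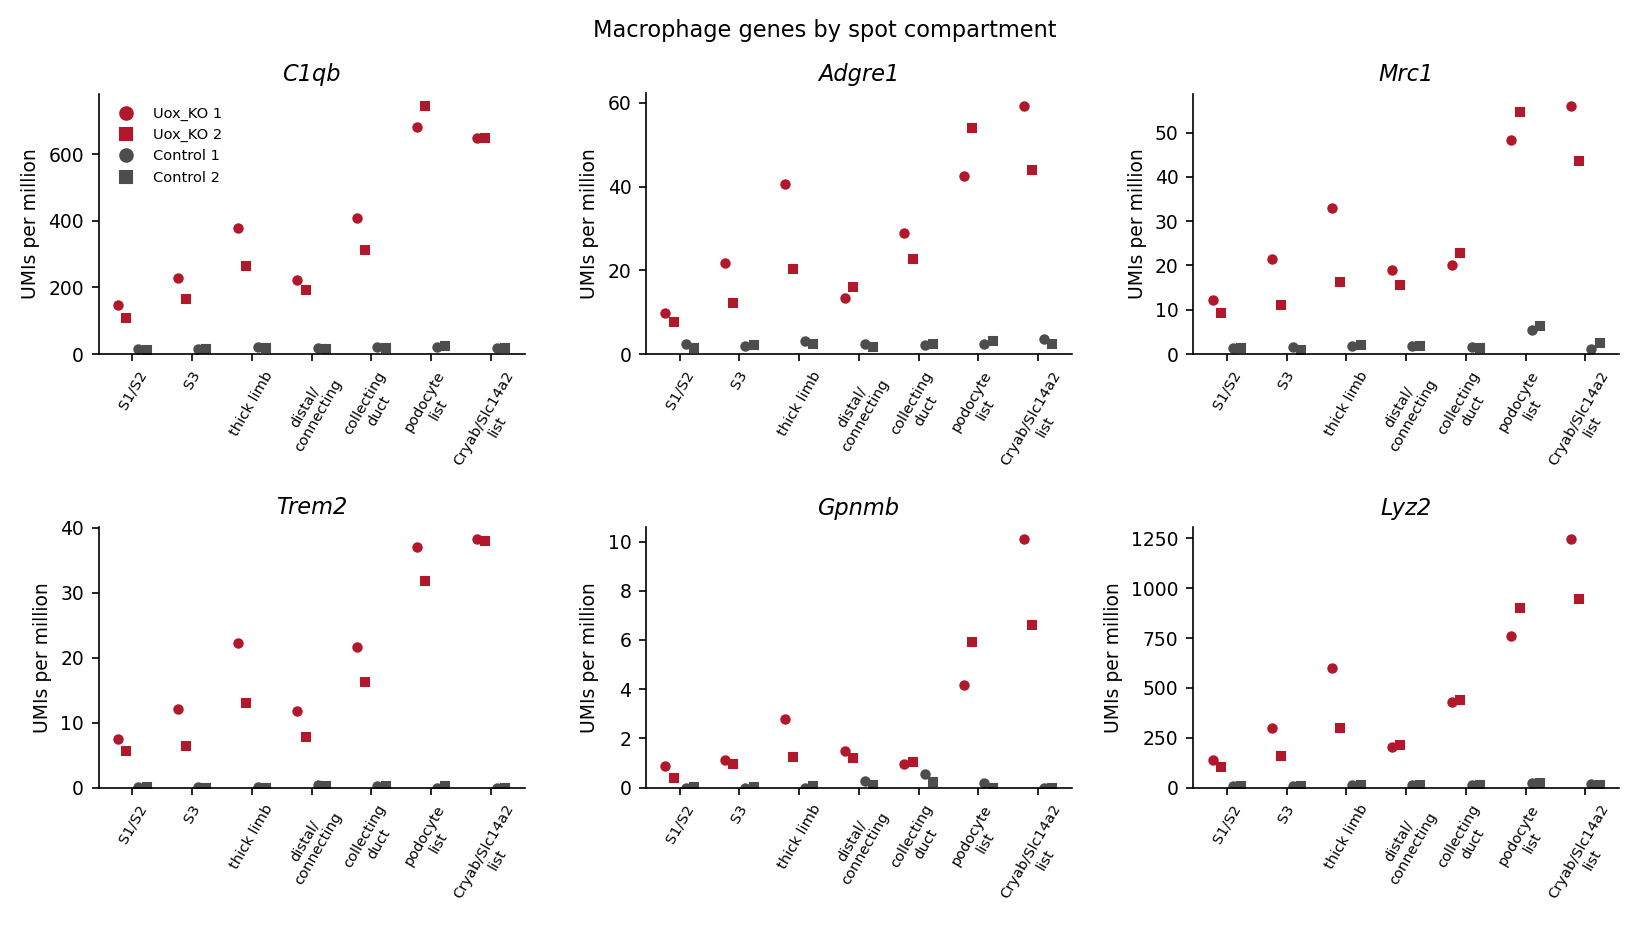
CPM of 6 genes in 7 groups of spots, with Uox_KO sections in red left of Control sections in grey, each panel on its own axis from 0. Uox_KO levels are lowest in S1/S2 spots and highest in podocyte-list and Cryab/Slc14a2-list spots, and Control Mrc1 is highest in podocyte-list spots.

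Beside injured tubule, the genes moved by smaller amounts. Spots with a Havcr1 UMI (425 and 439, against 1932 and 1999 spots without) held more of 8 of the 10 genes, beside 6.12% of 13107 genes that were higher and 6.93% that were lower. C1qa was higher by 0.30, C1qb by 0.23 and C1qc by 0.33 on the log2 scale, Lyz2 by 0.20, Fcrls by 0.54 and Cd68 by 0.59. Trem2 had 28.0 and 19.4 CPM in Havcr1 spots and 18.3 and 14.9 CPM in the others, a log2 fold change of 0.52 (SE 0.17, adjusted p = 0.0329). Adgre1 was higher by 0.46 (adjusted p = 0.0206 by edgeR). Without hilar spots, Trem2 was at 0.48 (adjusted p = 0.0628 by edgeR) and Adgre1 at 0.38 (0.0875), neither called. By section, Lyz2 was higher by 0.29 in the first Uox_KO section and by 0.07 in the second.

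Mrc1 had 28.9 and 21.2 CPM in Havcr1 spots and 33.2 and 26.6 CPM in the others, a log2 fold change of -0.25 (SE 0.15, adjusted p = 0.329). Gpnmb, with 10 and 10 UMIs in Havcr1 spots, was at 0.96 (SE 0.41, adjusted p = 0.125). Of 11 other resident macrophage genes, 0 were higher and 1 was lower in Havcr1 spots (median -0.28), the 1 being Cbr2 (-1.31), at -0.91 without hilar spots (adjusted p = 0.133). Of 20 other lipid-associated genes, 7 were higher, including Spp1 (1.43), and 3 were lower, including Lpl (-0.87), with a median of 0.08. In the TREM2 signalling list 2 of 7 were higher, including Tyrobp (0.63), in the colony stimulating factor list 2 of 5, Csf1 (0.89) and Il34 (0.84), and in the pan-myeloid list 7 of 15, including Cd14 (0.98), with 0 lower in these 3 lists. Fat genes (7 of 7) and urothelium genes (7 of 8) were lower in Havcr1 spots, and their part in the result was not tested beyond leaving out hilar spots.

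Spots with an Lcn2 UMI (718 and 634, against 1639 and 1804 without) held more of 9 of the 10 genes, beside 12.0% of 13149 genes that were higher and 16.5% that were lower. Trem2 had 32.8 and 24.3 CPM in Lcn2 spots and 14.3 and 12.6 CPM in the others, a log2 fold change of 1.08 (SE 0.15, adjusted p = 2.3e-11). Adgre1 had 41.7 and 39.3 CPM in Lcn2 spots and 21.4 and 20.5 CPM in the others (0.95, adjusted p = 4.5e-13 by edgeR). Cd68 was higher by 1.0, Lyz2 by 0.84, Fcrls by 0.78, C1qa by 0.72, C1qc by 0.72 and C1qb by 0.64. Mrc1 was higher by 0.41 (adjusted p = 0.0046), with 0.54 in the first Uox_KO section and 0.18 in the second.

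Gpnmb was at 0.66 (SE 0.40, adjusted p = 0.220 by edgeR), and at 1.13 with spots thinned to 10000 UMIs, where it was called (adjusted p = 0.0084). All 5 tested genes of the colony stimulating factor list and all 15 pan-myeloid genes were higher in Lcn2 spots. Of 9 thick limb genes, 4 were higher in Lcn2 spots, including Umod (1.12) and Slc12a1 (0.87), and 1 was lower (median 0.11). Of 7 principal cell genes, 4 were higher and 1 lower (median 0.42), and of 13 genes of the first proximal segments 11 were lower and 0 higher. All 7 tested fat genes were lower there. The part of these tissue differences in the result was not tested.

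**Figure D5:**
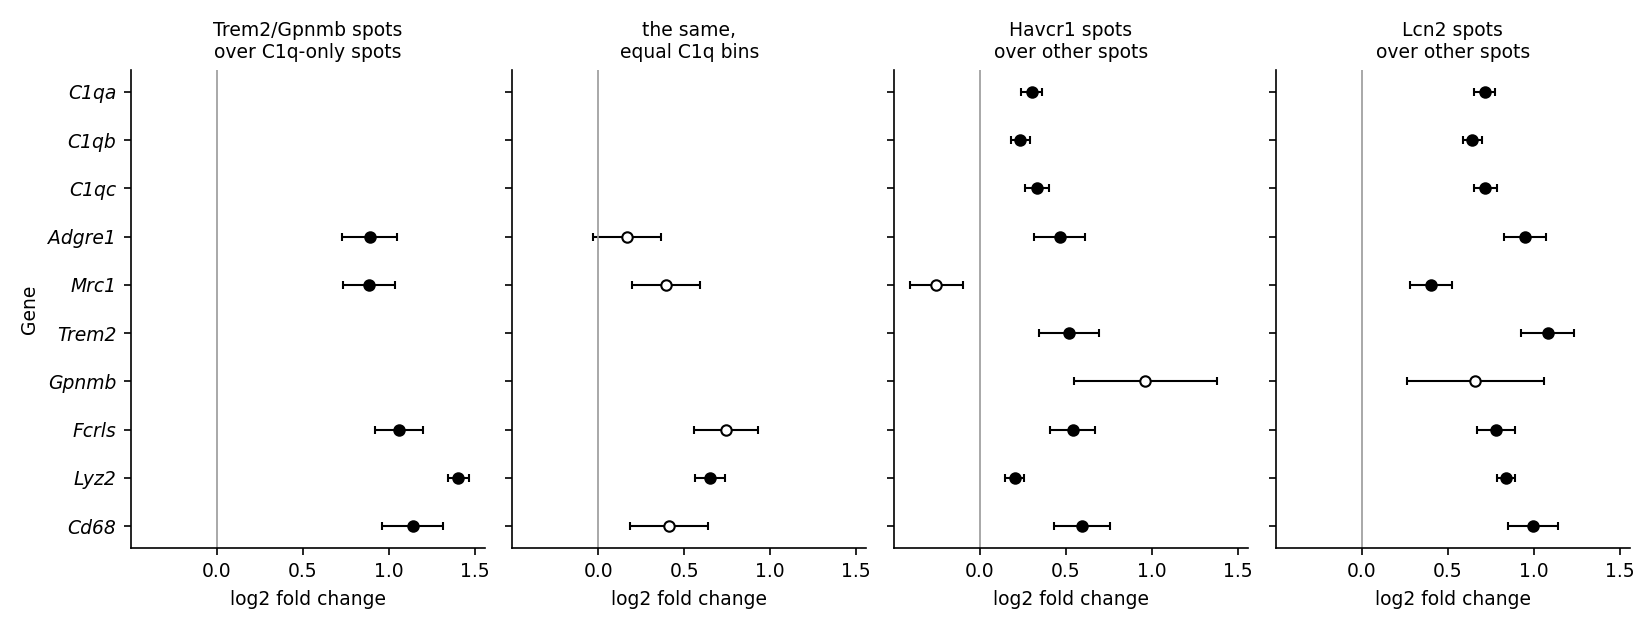
Log2 fold changes of the macrophage genes in 4 comparisons over spots of the 2 Uox_KO sections, with standard errors as bars; filled points had an adjusted p under 0.05. Lyz2 is the only gene called in both of the first 2 panels, Mrc1 is the one point below 0, in Havcr1 spots, and 9 of the 10 genes are called in Lcn2 spots.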

How the data were processed

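The authors deposited raw UMI counts per gene and spot for each section, and the submitters' processing notes name Space Ranger 1.3.1 and mm10. Genotype and replicate came from the labels, whose replicate numbers differ from those in the file names. Counts were summed over the spots of a section, compartment or spot class, filtered with filterByExpr, scaled by TMM and put through the quasi-likelihood F test of edgeR 4.0.16 in R 4.3.3, adjusted over all genes tested, with a threshold of 0.05. Comparisons of spots within Uox_KO used spots thinned to 5000 UMIs (seed 1) with section as a block. Compartments were set for spots of at least 500 UMIs by the highest z-score of a marker list within a section, and hilar spots had at least 1 of 1000 UMIs from the fat or urothelium list. Standard errors are the log2 fold change over the root of F.

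The 10 genes and the 33 gene lists were chosen with earlier results of these data known. Named were the 10 genes, up to 4 genes of a list by smallest p, the 5 most and least like genes over spots, and the 5 largest rises and falls at 10 CPM or more; exceptions are marked. Same-numbered sections did not vary together (correlation of deviations 0.0899 over 2 pairs), so no pairing was used. Alternatives were DESeq2 1.42.0, other scalings and filters, each section left out, hilar spots left out and other thinning. The fits were tested on simulated counts. No sequencing run or slide was given in the labels, so a batch and the genotype cannot be told apart.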

Additional observations from a re-analysis of the deposited data

Results flagged for a closer look

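For 7 of the 10 genes, the difference between Uox_KO and Control was not the same over the 7 groups of spots, by edgeR's test of the interaction with mouse as a block. The adjusted p was 6.2e-05 for C1qa, 8.8e-07 for C1qb, 4.6e-05 for C1qc, 0.0468 for Trem2, 0.0355 for Gpnmb, 0.0094 for Lyz2 and 0.0043 for Cd68. The same test called 41.1% of all 14508 genes, so this is common in these sections. More than 3 Control UMIs were found in 3 of 7 tested compartments for Trem2 and in 1 of 5 for Gpnmb. The calls for Trem2 and Gpnmb thus rest on few Control UMIs. The log2 fold changes ran from 2.68 to 4.24 for C1qa, 3.19 to 4.57 for C1qb, 2.40 to 4.33 for C1qc, 3.74 to 5.49 for Lyz2 and 1.78 to 3.43 for Cd68, with the smallest of each in S1/S2 spots. The largest was in podocyte-list spots for C1qb and in Cryab/Slc14a2-list spots for C1qa, C1qc, Lyz2 and Cd68. The test included the Cryab/Slc14a2-list spots, whose list did not hold up. The cause was not tested.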

How the results depend on the processing

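All 10 genes were higher in whole sections under each of 12 alternatives (log2 fold changes from 3.16 to 3.66 for C1qa, 6.50 to 7.02 for Trem2, 3.93 to 4.79 for Gpnmb and 7.27 to 8.64 for Fcrls; largest adjusted p 0.0015). With each section left out, 10 to 10 of them were higher, beside 4674 to 5427 genes higher and 4241 to 5060 lower. With library totals alone, 2926 genes were lower, against 5325. The replicate block gave 10 genes of the 10 higher, 5739 higher and 5377 lower in all, and changed no other call of the 10. With a section left out, the compartments gave 9 to 10 (S1/S2, S3, thick limb), 9 to 9 (distal and connecting tubule, against 10 with all sections, and collecting duct) and 10 to 10 (Cryab/Slc14a2-list, podocyte-list). The Trem2 and Gpnmb ratio to C1q, log2 2.64, ranged from 2.52 to 2.76. For Trem2 or Gpnmb spots against C1q-only spots, 745 genes were higher and 1079 lower; the counts were 1514 and 1815 at 10000 UMIs, 301 higher when 2 UMIs were asked, and 12 and 36 at equal C1q bins, where 1 of 5 macrophage genes was called. These settings change the number of spots and their depth. Aqp2 turned to 0.079 (adjusted p 0.921 by edgeR) when 2 UMIs were asked, and in Lcn2 spots Cbr2 turned to -0.011 (adjusted p 0.964) at 10000 UMIs; the cause was not tested. The mean r of C1q with Trem2 and Gpnmb, 0.279, was 0.253 by Spearman, 0.393 at 10000 UMIs and 0.271 to 0.288 by section. Over single genes, 582 of 588 whole-section values kept their call. Spot comparisons depended more on the setting. For Trem2 or Gpnmb spots against C1q-only spots, 119 of 154 values kept their call or size and 32 lost their call. For Havcr1 spots and for Lcn2 spots, 54 of 64 values each kept their call or size. Few Gpnmb UMIs and 2 mice a group limit the precision.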

Other observations

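At matched C1q bins, immunoglobulin genes were among the genes higher in Trem2 or Gpnmb spots of Uox_KO. Ighg1 was higher in both sections, with 11.1 and 18.5 CPM against 1.65 and 2.12 CPM in C1q-only spots (2.89, adjusted p = 0.0141 by edgeR). The values of Igkc and Igha came mainly from 1 section. Igkc had 147 and 35.0 CPM in Trem2 or Gpnmb spots and 19.0 and 48.7 CPM in C1q-only spots, a log2 fold change of 1.51 (adjusted p = 0.0281 by edgeR), so the second section went the other way. Igha had 138 and 28.8 CPM in Trem2 or Gpnmb spots and 5.78 and 20.1 CPM in C1q-only spots. Mpeg1, which encodes the pore-forming perforin-2 of phagocytes, had 215 and 189 CPM against 114 and 149 CPM (0.64, adjusted p = 0.0127 by edgeR). Wfdc17, a gene of activated macrophages in the mouse, had 111 and 97.8 CPM against 64.4 and 50.8 CPM (0.85, adjusted p = 0.0057 by edgeR). All genes named in this paragraph were chosen after their values were seen.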
